A study of Homo sapiens with 9 samples.

Results

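The genes of the TGF-beta and BMP pathways were examined in A2780 cells, an established line of human ovarian carcinoma, with and without DIG-MSK, an analogue of mithramycin, an antibiotic that sits in the minor groove of DNA at C/G-rich sites. Members were chosen by symbol, with earlier results of these data known. They were the 3 TGF-beta ligands and their receptors, and all genes whose symbol starts with BMP and a digit or with BMPR or ACVR. The activin and inhibin subunits, the SMAD genes, ID1 to ID4, and the secreted antagonists NOG, FST, FSTL3 and CHRD completed the set. This gave 48 genes with 62 probes, out of 35010 genes and 42405 probes on the array. Cultures were left untreated or exposed to DIG-MSK at 8 or at 80 nM for 24 h, 3 cultures each, and each RNA preparation was hybridized to an array of its own, 9 arrays in all. A level below is the log2 of the background-subtracted signal of a probe minus the 75th percentile of its array, and it can be compared between arrays but not between genes. Of the 48 members, 35 were measured well above background throughout at least 1 group and were tested, with 45 probes, among 21832 genes in all. Of these, 31 passed in every group and 4 in some groups only, so that counts over the 35 are not counts over all members. The 21832 genes include transcripts without a RefSeq symbol, counted by accession, whereas every member has a symbol. Shares over all genes given below are over this mixed set.

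In this pathway, secreted ligands bring together type II and type I receptor kinases, and the type I receptor phosphorylates receptor-regulated SMAD proteins: SMAD2 and SMAD3 for TGF-beta and activin, SMAD1, SMAD5 and SMAD9 for BMP. These join SMAD4 and enter the nucleus, where the ID genes are among the best known targets of BMP signals. Secreted antagonists hold ligands away from their receptors, and the inhibitory SMAD6 and SMAD7 dampen the signal inside the cell. In the ovary the pathway is known for its part in follicle growth, and ovarian carcinoma cells commonly express its components.

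The untreated and 8 nM arrays lay on one slide and the 80 nM arrays on another, scanned on another occasion, so slide and treatment with 80 nM cannot be told apart. Between 24814 and 27151 probes per array were well above background, and no probe was saturated. The array with the fewest such probes was 8 nM replicate 2, on which 5 members (BMP2K, BMPR2, SMAD4, SMAD5 and SMAD9) lay more than 0.5 log2 below both other 8 nM arrays. No other array had a member that far below both other arrays of its group. RNA came from whole cultures, in which fewer cells of a type and less RNA per cell cannot be told apart. Of the 7 epithelial and ovarian carcinoma markers looked for, KRT8, KRT18 and EPCAM were measured and CDH1, PAX8, WT1 and MUC16 did not pass the filter; EPCAM changed by 0.90 at 8 nM and -0.92 at 80 nM, both called, and the keratins were not called. Of 4 fibroblast markers 3 were measured. Their summed signal, relative to the 75th percentile, was 2.57 to 3.09 on the untreated arrays, 2.95 to 3.51 at 8 nM and 0.191 to 0.227 at 80 nM. In untreated cells PDGFRA was by far the brightest, at 1.27, beside -1.89 for DCN and -3.73 for PDGFRB. At 80 nM PDGFRA changed by -6.50 and DCN by -1.39, both called, and PDGFRB by 0.01, not called. The sum thus mainly follows PDGFRA, and its part in the changes at 80 nM was not tested. The leukocyte markers measured, 2 of 4, and the endothelial one, 1 of 3, were not called at either concentration.

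At 8 nM DIG-MSK few members were called. Calls of up-regulation needed at least 1.5-fold, and calls of down-regulation at most 0.67-fold, each with a Benjamini-Hochberg adjusted p under 0.05 from limma, which on the log2 scale means a change of at least 0.585 or at most -0.578. At 8 nM, SMAD3 was up-regulated and SMAD9 down-regulated, 5.71% of the 35 members, and 33 were not called. Over all genes tested, 5.11% were called at this concentration (3.71% up-regulated and 1.4% down-regulated), so the share among the members was near that of all genes. The median log2 change was -0.05 over the members and -0.06 over all genes.

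At 80 nM DIG-MSK 12 members rose (TGFB1, TGFB3, INHA, INHBE, BMPR2, SMAD2, SMAD9, ID1, ID2, NOG, FSTL3 and BMP1), 4 fell (BMP5, BMP7, SMAD6 and FST) and 19 were not called. That is 45.7% of the members tested, beside 34.4% of all genes, unnamed transcripts included (18.6% up-regulated and 15.8% down-regulated). The median log2 change was 0.23 over the members and 0.08 over all genes. Scaling the arrays to the spike-in controls moved the median of all genes at 80 nM to -0.20 and that of the members to -0.05, and then 3 members rose (INHA, NOG and SMAD9) and 5 fell (BMP5, BMP7, FST, SMAD3 and SMAD6). Among all genes, 1831 rose and 4985 fell at 80 nM with that scaling, against 4056 and 3453 with the 75th percentile. The changes of NOG, SMAD9 and INHA upwards and of BMP7, BMP5, FST and SMAD6 downwards thus kept their calls under both scalings.

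**Figure D1:**
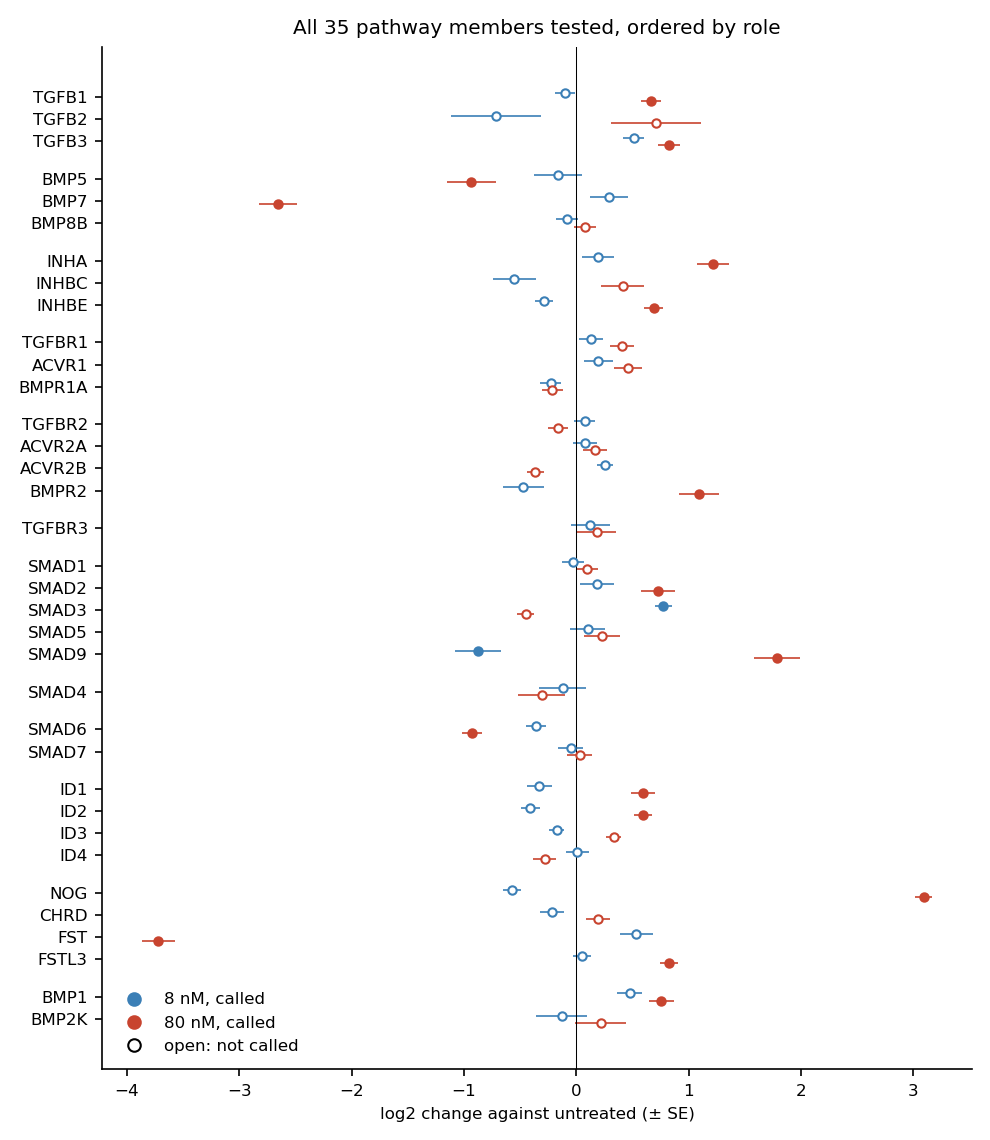
Log2 change against untreated cells (horizontal axis, with standard errors) of the 35 pathway members tested, at 8 nM (blue) and 80 nM DIG-MSK (red), grouped from top to bottom by role; filled points are called. At 8 nM 2 points are filled, and at 80 nM 16 are, from NOG at 3.09 down to BMP7 at -2.65. FST is drawn at its fitted value of -3.72, but its 80 nM level is not well above background and only a bound of at least 3.78-fold holds for it.

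Because DIG-MSK binds C/G-rich DNA, the bases before the start sites of the members were read from RefSeq (GRCh38.p14), where 40 of the 48 members had at least 1 promoter and 28 had a single start. ACVRL1, BMP1, BMP2, BMP2K, BMP3, BMP7, INHBE and NOG had no entry. The 250 bases before the start are printed for members with a single start that rose at 80 nM (SMAD9 and BMPR2) and that fell (FST and SMAD6), 5′ to 3′ on the strand of the gene. Capitals mark the GC box GGGCGG, the core of the site bound by Sp1, or its reverse complement CCGCCC.
SMAD9: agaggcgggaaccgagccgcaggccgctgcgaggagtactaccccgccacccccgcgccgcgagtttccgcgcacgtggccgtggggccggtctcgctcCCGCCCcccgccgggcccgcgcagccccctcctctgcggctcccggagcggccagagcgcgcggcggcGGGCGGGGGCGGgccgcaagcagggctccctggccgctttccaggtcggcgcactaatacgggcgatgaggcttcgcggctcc
BMPR2: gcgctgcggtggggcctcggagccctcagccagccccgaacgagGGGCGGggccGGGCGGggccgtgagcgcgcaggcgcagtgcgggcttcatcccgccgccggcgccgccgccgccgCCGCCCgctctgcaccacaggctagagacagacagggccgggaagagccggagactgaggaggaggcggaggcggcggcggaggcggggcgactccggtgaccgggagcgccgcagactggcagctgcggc
FST: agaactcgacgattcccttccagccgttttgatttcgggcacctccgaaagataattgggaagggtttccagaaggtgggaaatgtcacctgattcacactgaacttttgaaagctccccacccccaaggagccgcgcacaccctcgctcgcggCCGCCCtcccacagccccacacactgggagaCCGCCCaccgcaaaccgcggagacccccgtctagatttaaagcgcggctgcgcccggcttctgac
SMAD6: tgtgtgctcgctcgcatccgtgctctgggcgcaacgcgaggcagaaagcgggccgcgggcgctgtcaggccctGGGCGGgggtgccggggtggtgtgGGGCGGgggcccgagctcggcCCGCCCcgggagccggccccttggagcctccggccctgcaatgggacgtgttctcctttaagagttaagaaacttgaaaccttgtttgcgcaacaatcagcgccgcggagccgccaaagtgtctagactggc
These stretches lie at chr13:36920239-36920488 on the minus strand for SMAD9 and, on the plus strand, at chr2:202376077-202376326 for BMPR2, chr5:53480379-53480628 for FST and chr15:66701986-66702235 for SMAD6. SMAD9, BMPR2 and SMAD6 each held 3 GC boxes, and FST held 2. Their GC content was 78.4%, 79.2%, 68% and 60% in the order SMAD9, BMPR2, SMAD6 and FST, beside a median of 58.0% over all 35116 promoters of the same length. GC boxes were thus present before members that rose and before members that fell.

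Among the members with a single start, a GC box was found in 6 of the 7 that rose at 80 nM, in 2 of the 3 that fell and in 7 of the 12 that were tested but not called. It was found in 42.6% of all promoters, a share that counts every start and includes genes not measured. Counted by every start, the share was 51.5% over the members, and 72.7%, 66.7% and 44.7% for those that rose, fell and were not called. With a single start, the median GC content was 76.8%, 60% and 69.4% in the same order. Before BMP5, which fell, the GC content was the lowest of all members with an entry, 35.6%, and no GC box was found. Of the DNA elements of the pathway itself, the SMAD1/5 element GGCGCC was found in 2 of the 7, in 0 of the 3 and in 2 of the 12, beside 16.4% of all promoters, and the SMAD box CAGAC in 2, 0 and 4, beside 38.0%. Both strands were searched, and matches of the different motifs may overlap. A match in these letters is a description of sequence and not a measured site.

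Among the secreted antagonists NOG, with the largest increase of the members tested, and FSTL3 rose at 80 nM, and FST fell. The level of NOG (NM_005450), noggin, which binds BMP ligands, was -3.80, -3.91 and -3.98 on the untreated arrays, -4.48, -4.38 and -4.54 at 8 nM and -0.75, -0.86 and -0.80 at 80 nM. The 3 groups did not overlap, with 8 nM lowest and 80 nM far above the others. At 80 nM, NOG rose by 3.09 in log2 units (SE 0.08, adjusted p = 3.6e-08, limma), or 8.53-fold. At 8 nM its change was -0.57 (SE 0.08, adjusted p = 0.0029), 1.49-fold lower and just short of the fold limit. That change was -0.30 with normexp background correction (adjusted p = 0.064), and with the replicate number as a block in a fit of the untreated and 8 nM arrays its adjusted p was 0.054.

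FST (NM_013409), follistatin, which binds activins with high affinity and some BMPs, was at -3.80, -4.14 and -4.18 in untreated cells, at -3.26, -3.60 and -3.66 at 8 nM and at -7.77, -7.91 and -7.60 at 80 nM. No 80 nM array was well above background for this probe, whereas all untreated and 8 nM arrays were. Only a bound can therefore be given: at 80 nM FST was at least 3.78-fold lower than in untreated cells. Against 8 nM it was at least 5.47-fold lower. The bound sets the mean of the brighter group against the lowest signal counted as well above background, and was not itself tested. The fitted changes of -3.72 and -4.25, which use the 80 nM signals as measured, had adjusted p = 3.9e-07 and 1.8e-07 (limma). At 8 nM the 3 arrays lay above the untreated ones, with a change of 0.53 (SE 0.15, adjusted p = 0.048) that did not reach the fold limit. With normexp background correction, with an offset of 50 added to every signal, the fitted change of FST at 80 nM was -0.74 in place of -3.72.

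FSTL3 (NM_005860), a relative of follistatin that also binds activin and myostatin, moved opposite to FST at 80 nM. It was measured at 0.03, 0.05 and 0.05 in untreated cells, at 0.20, 0.12 and -0.02 at 8 nM and at 0.76, 0.95 and 0.89 at 80 nM. The 80 nM arrays lay above all others, while untreated and 8 nM arrays overlapped. FSTL3 rose by 0.82 at 80 nM (SE 0.08, adjusted p = 5.9e-05), with a change of 0.05 at 8 nM (adjusted p = 0.68). CHRD, chordin, another binder of BMPs, had changes of -0.22 at 8 nM and 0.19 at 80 nM (adjusted p = 0.21 and 0.15), and a dimmer probe of it had 0.02 and -0.47 (adjusted p = 0.96 and 0.17).

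Of 10 BMP ligands on the array, 3 were measured, and 2 of these fell at 80 nM. BMP7 (NM_001719), a ligand of the BMP branch that is expressed in many epithelia, was at 1.02, 1.29 and 1.22 in untreated cells, at 1.30, 1.90 and 1.21 at 8 nM and at -1.48, -1.48 and -1.47 at 80 nM. The 80 nM arrays lay far below the others and within 0.01 of each other, and the untreated and 8 nM arrays overlapped. BMP7 fell by 2.65 on the log2 scale at 80 nM (SE 0.17, adjusted p = 5.5e-06), or 6.29-fold, and by 2.94 against 8 nM (adjusted p = 3.1e-06). The other probes of BMP7 had changes of -1.90 and -2.36 at 80 nM, the latter being well above background on 1 of the 3 arrays there. At 8 nM the 3 probes had changes of 0.29, 0.55 and 0.21 (adjusted p = 0.28, 0.022 and 0.54).

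BMP5 (NM_021073), another BMP ligand, was dim, at -3.48, -3.92 and -3.69 in untreated cells, -4.03, -3.35 and -4.20 at 8 nM and -4.70, -4.47 and -4.73 at 80 nM. All 80 nM arrays lay below all others. BMP5 fell by 0.93 at 80 nM (SE 0.22, adjusted p = 0.0061). The call was lost with normexp background correction, where the change was -0.32, and with the authors' log2 values, where it was -0.53. BMP8B was not called, with changes of -0.09 and 0.08 by the probe used. A far dimmer probe of BMP8B was not tested, as only 1 array, at 80 nM, was well above background for it. That probe had a mean of -5.91 over the 80 nM arrays, higher than its untreated mean of -8.00 and its 8 nM mean of -7.83. Its bound of at least 1.12-fold against untreated cells falls short of the fold limit. BMP2, BMP3, BMP4, BMP6, BMP8A, BMP10 and BMP15 were not well above background on all arrays of any group.

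All TGF-beta ligands passed the filter, and 2 of the 3 rose at 80 nM. TGFB1 (NM_000660), the ligand most studied in carcinomas, was at 0.11, 0.15 and 0.25 in untreated cells, 0.20, -0.08 and 0.08 at 8 nM and 0.82, 0.77 and 0.93 at 80 nM. The 80 nM arrays stood above the other 6, which overlapped. TGFB1 rose by 0.67 at 80 nM (SE 0.09, adjusted p = 0.00036), with -0.10 at 8 nM (adjusted p = 0.47). TGFB3 (NM_003239) was at -1.89, -1.95 and -1.96 in untreated cells, -1.61, -1.25 and -1.39 at 8 nM and -1.06, -1.16 and -1.09 at 80 nM. Its groups did not overlap and stood in the order of the concentrations. TGFB3 rose by 0.83 at 80 nM (SE 0.10, adjusted p = 0.00015), and its change of 0.51 at 8 nM (SE 0.10, adjusted p = 0.011) was under the fold limit. TGFB2 was well above background on 2 untreated arrays, on none at 8 nM and on all 3 at 80 nM. It thus passed the filter only through its 80 nM arrays, at -5.20, -3.78 and -5.10, of which replicate 2 stood apart. As a bound, TGFB2 was at least 2.09-fold higher at 80 nM than at 8 nM. The fitted change of 1.42, on 8 nM signals not well above background, was called (limma, adjusted p = 0.016). That call was lost with normexp background correction (adjusted p = 0.059), the authors' log2 values (0.064), spike-in scaling (0.066) and without 8 nM replicate 1 (0.052). Against untreated cells its changes were -0.72 and 0.71 (adjusted p = 0.26 and 0.16).

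Activins are dimers of inhibin beta chains, and inhibins, which oppose them, pair a beta chain with the alpha chain INHA. The beta A and beta B chains, INHBA and INHBB, were not well above background on any array. INHA (NM_002191) was at -5.31, -5.28 and -5.06 in untreated cells, -4.75, -5.34 and -4.99 at 8 nM and -4.03, -4.00 and -3.97 at 80 nM. The 80 nM arrays were the highest, and the other groups overlapped near the limit of detection. INHA rose by 1.22 at 80 nM (SE 0.14, adjusted p = 0.00016), or 2.33-fold; with normexp background correction the change was 0.50 and not called. INHBE (NM_031479), a beta chain known mainly from liver, was at -2.26, -2.04 and -2.09, then at -2.37, -2.44 and -2.44, and at 80 nM at -1.43, -1.36 and -1.53. Here the 8 nM arrays were below and the 80 nM arrays above all untreated ones. INHBE rose by 0.69 at 80 nM (SE 0.08, adjusted p = 0.00016), with -0.29 at 8 nM (adjusted p = 0.051). INHBC, another beta chain, had changes of -0.55 and 0.41 and was not called (adjusted p = 0.097 and 0.098) and rose by 0.96 between 8 and 80 nM (adjusted p = 0.003), a call lost with normexp background correction (0.43), the authors' log2 values (0.49) and spike-in scaling (0.60).

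Among 12 receptor genes BMPR2 alone was called against untreated cells, and 8 were tested. BMPR2 (NM_001204), the type II receptor for BMPs, was at -2.73, -2.42 and -2.49 in untreated cells, -2.88, -3.44 and -2.73 at 8 nM and -1.35, -1.56 and -1.45 at 80 nM. The 80 nM arrays lay about 1 log2 unit above the untreated ones, and 8 nM overlapped with untreated. BMPR2 rose by 1.09 at 80 nM (SE 0.18, adjusted p = 0.001), or 2.13-fold, with -0.47 at 8 nM (adjusted p = 0.12). For the type I receptors, TGFBR1 changed by 0.41 at 80 nM (adjusted p = 0.012) and ACVR1 by 0.46 (adjusted p = 0.013), both under the fold limit, while a dimmer probe of ACVR1 rose by 0.81 (adjusted p = 0.0054). BMPR1A had -0.21 (adjusted p = 0.088) and, by 2 other probes, 0.08 and 0.40. The remaining type II receptors were not called at 80 nM, with changes of -0.16 for TGFBR2, 0.17 for ACVR2A and -0.36 for ACVR2B (adjusted p = 0.17, 0.21 and 0.0029). Between 8 and 80 nM, ACVR2B, a receptor for activin and related ligands, fell by 0.62 (adjusted p = 0.00017), a call lost with normexp background correction (-0.54) and without 8 nM replicate 1 (-0.57). TGFBR3, betaglycan, a co-receptor that presents TGF-beta and inhibin, changed by 0.12 and 0.18. ACVR1B, ACVR1C, ACVRL1 and BMPR1B were not tested.

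All 8 SMAD genes passed the filter, and they held both calls made at 8 nM. SMAD9 (NM_005905), a receptor-regulated SMAD of the BMP branch, was at -1.03, -1.06 and -0.93 in untreated cells, -1.71, -2.42 and -1.51 at 8 nM and 0.80, 0.82 and 0.73 at 80 nM. The 3 groups did not overlap, with 8 nM below and 80 nM above untreated cells. SMAD9 rose by 1.79 at 80 nM (SE 0.20, adjusted p = 0.00014), or 3.46-fold, and fell by 0.87 at 8 nM (SE 0.20, adjusted p = 0.026). The other probe of SMAD9 had changes of 2.04 (adjusted p = 1.4e-06) and -0.77 (adjusted p = 0.0028). The lowest 8 nM array was replicate 2; without it the change at 8 nM was -0.60 and still called (adjusted p = 0.0044). The call at 8 nM was lost when any of the untreated arrays was left out (adjusted p = 0.07, 0.067 and 0.086), and with the replicate number as a block in a fit of the untreated and 8 nM arrays (adjusted p = 0.081).

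SMAD3 (NM_005902), which carries TGF-beta and activin signals, moved the other way at each concentration. Its level was -1.52, -1.37 and -1.38 in untreated cells, -0.75, -0.61 and -0.59 at 8 nM and -1.89, -1.84 and -1.90 at 80 nM. The groups did not overlap, with 8 nM highest and 80 nM lowest. SMAD3 rose by 0.78 at 8 nM (SE 0.08, adjusted p = 0.00063), or 1.71-fold, and fell by 1.22 from 8 to 80 nM (adjusted p = 4.6e-06). Its change of -0.45 at 80 nM against untreated cells (SE 0.08, adjusted p = 0.0012) did not reach the fold limit. Scaled to the spike-in controls, the changes were 0.86 at 8 nM (adjusted p = 0.098, not called) and -0.73 at 80 nM (adjusted p = 0.028, called).

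SMAD2 (NM_001003652), the partner of SMAD3 in the same branch, was at -2.16, -1.88 and -2.16 in untreated cells, -1.81, -2.21 and -1.63 at 8 nM and -1.23, -1.39 and -1.40 at 80 nM. Only the 80 nM arrays stood apart, above the others. SMAD2 rose by 0.73 at 80 nM (SE 0.15, adjusted p = 0.0036). SMAD1 and SMAD5, of the BMP branch like SMAD9, were not called, with 0.10 and 0.23 at 80 nM (adjusted p = 0.43 and 0.24), and neither was the common SMAD4, with -0.31 (adjusted p = 0.23). Of the inhibitory SMADs, SMAD6 (NM_005585), which acts mainly on BMP signals, was at 0.41, 0.24 and 0.34 in untreated cells, -0.16, 0.13 and -0.06 at 8 nM and -0.56, -0.62 and -0.61 at 80 nM. Its groups did not overlap and fell in the order of the concentrations. SMAD6 fell by 0.92 at 80 nM (SE 0.09, adjusted p = 5.6e-05), and its change of -0.36 at 8 nM (SE 0.09, adjusted p = 0.034) was under the fold limit. SMAD7, which acts on both branches, changed by -0.05 and 0.03 (adjusted p = 0.78 and 0.81).

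ID proteins bind basic helix-loop-helix factors and keep them off DNA. ID1 (NM_002165) was at 4.90, 4.83 and 4.73 in untreated cells, 4.45, 4.73 and 4.29 at 8 nM and 5.41, 5.42 and 5.42 at 80 nM, and ID2 (NM_002166) was at 4.27, 4.12 and 4.07, then at 3.82, 3.62 and 3.80, and at 80 nM at 4.73, 4.75 and 4.76. For both genes the 8 nM arrays reached no higher than the lowest untreated one, and the 80 nM arrays lay above all others. ID1 rose by 0.60 at 80 nM (SE 0.11, adjusted p = 0.0018) and ID2 by 0.59 (SE 0.08, adjusted p = 0.0004), both just past the fold limit; the other probe of ID2 rose by 1.18 (adjusted p = 1.5e-05). The call of ID1 was lost without untreated replicate 3 (0.552) and that of ID2 without untreated replicate 2 (0.577) or 3 (0.554). At 8 nM the changes were -0.33 for ID1 and -0.41 for ID2 (adjusted p = 0.085 and 0.015), neither called. ID3 and ID4 were not called at 80 nM, with changes of 0.33 and -0.28 (adjusted p = 0.003 and 0.047), so that the 4 genes did not all have the same sign.

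Of the members that carry the name BMP without being ligands, BMP1 (NM_001199), a protease that trims procollagens and cleaves chordin, was at -2.61, -2.93 and -2.66 in untreated cells, -2.09, -2.38 and -2.30 at 8 nM and -2.05, -1.99 and -1.90 at 80 nM. Untreated arrays were lowest and 80 nM arrays highest, with no overlap. BMP1 rose by 0.76 at 80 nM (SE 0.11, adjusted p = 0.00055), and its change at 8 nM was 0.48 (SE 0.11, adjusted p = 0.026), under the fold limit. BMP2K, a kinase, had changes of -0.13 and 0.22 (adjusted p = 0.72 and 0.43). Its 2 other probes had 0.13 and 0.30 at 8 nM and -0.06 and 0.09 at 80 nM, and none was called.

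**Figure D2:**
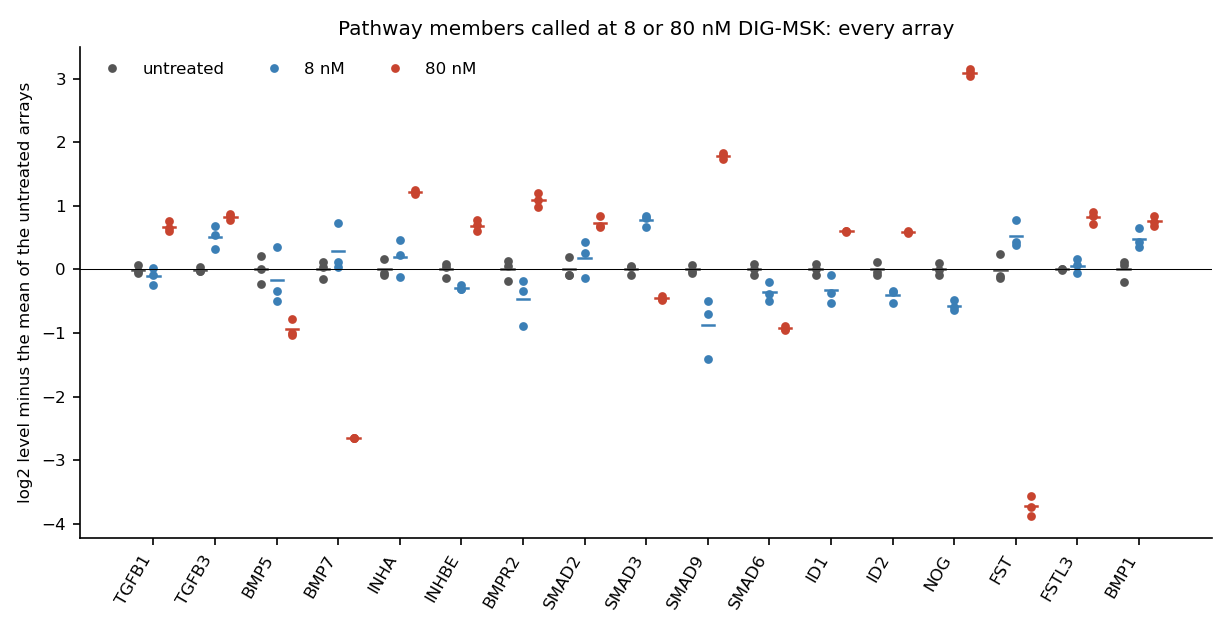
Log2 level of each array minus the mean of the 3 untreated arrays (vertical axis) for the 17 members called at 8 or 80 nM against untreated cells, with points for arrays and bars for group means (grey untreated, blue 8 nM, red 80 nM). NOG and SMAD9 lie below the untreated arrays at 8 nM and above them at 80 nM, SMAD3 the reverse, and BMP7 and FST drop at 80 nM; the 80 nM points of FST are not well above background.

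Compared directly, 11 members were higher at 80 nM than at 8 nM (TGFB1, TGFB2, INHA, INHBC, INHBE, BMPR2, SMAD9, ID1, ID2, NOG and FSTL3) and 5 lower (BMP5, BMP7, ACVR2B, SMAD3 and FST), 45.7% of those tested beside 32.9% of all genes (19.1% higher and 13.8% lower). NOG was 12.7-fold higher at 80 nM than at 8 nM (log2 3.66, SE 0.08, adjusted p = 1.3e-08) and SMAD9 6.32-fold (log2 2.66, SE 0.20, adjusted p = 1.6e-05). TGFB2, counted as higher, passed the filter only through its 80 nM arrays. The comparisons of 80 nM with untreated cells and with 8 nM share the 80 nM arrays. With spike-in scaling BMPR2, NOG and SMAD9 were higher, and ACVR2B, BMP5, BMP7, FST, ID4, SMAD3 and SMAD6 lower.

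Over the settings tried, the 16 members called at 80 nM against untreated cells kept the sign of their change, but 9 of them lost the call when arrays were scaled to the spike-in controls: BMP1, BMPR2, FSTL3, ID1, ID2, INHBE, SMAD2, TGFB1 and TGFB3, whose changes then were between 0.31 and 0.81. Normexp background correction left 8 of the 12 that rose and 3 of the 4 that fell, since BMP1 (0.56), ID2 (0.54), INHA (0.50), INHBE (0.58) and BMP5 (-0.32) were no longer called, and with the authors' log2 values BMP5 (-0.53) and ID2 (0.53) lost their calls. Changes of NOG were between 2.28 and 3.09 and those of BMP7 between -2.93 and -2.30 over these settings, so both stayed large. The members with small changes did not keep their sign under that scaling: ACVR2A, BMP2K, BMP8B, CHRD, SMAD1, SMAD5, SMAD7 and TGFBR3 had values between -0.25 and -0.05 there.

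**Figure D3:**
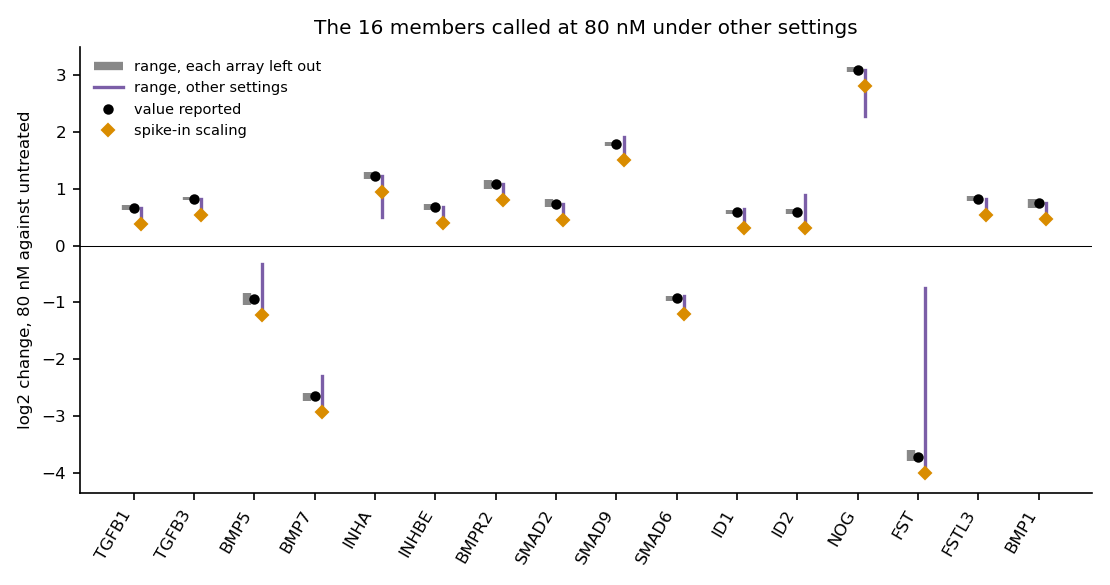
Log2 change at 80 nM against untreated cells (vertical axis) of the 16 members called, as reported (black), with its range when each array was left out (grey) and over the other settings (purple), and its value with spike-in scaling (orange). No range crosses 0; the widest, that of FST, ends at -0.74.

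The wider pathway was followed in 6 lists of textbook genes, some of which share genes. At 80 nM 1 of the 6 other ligands measured (of 15 listed) rose and 1 fell, 4 and 4 of 15 extracellular regulators (of 24), 2 and 1 of 5 membrane partners (of 10), 1 and 9 of 27 SMAD regulators (of 28), 6 and 4 of 13 TGF-beta target genes (of 19) and 2 and 1 of 6 BMP target genes (of 10). Over all genes 34.4% were called at this concentration. The medians of the log2 changes were 0.22, 0.25, 0.51, -0.21, 0.28 and 0.30 in that order, beside 0.08 over all genes; with spike-in scaling they were -0.06, -0.03, 0.23, -0.49, 0.00 and 0.02 beside -0.20. At 8 nM 1 of the other ligands rose, no extracellular regulator was called, 1 membrane partner rose and 1 fell, 1 SMAD regulator fell, 5 TGF-beta target genes rose and 2 BMP target genes fell, beside 5.11% of all genes called. RGMA, the membrane partner lower at 80 nM, and BAMBI, the membrane partner and BMP target lower at 8 nM, were not well above background there, and their bounds against untreated cells, 1.07-fold and 1.31-fold, fall short of the fold limit. The medians were the same with genes below background set at their bound. RGMA, which rose at 8 nM, passed the filter only through its 8 nM arrays. BAMBI and RUNX3, which rose at 80 nM, passed it only through their 80 nM arrays. Of the TGF-beta targets called higher at 8 and 80 nM, COL1A1, TAGLN and CDKN1A were known to be higher when the lists were written. Those counts can therefore not be read against the shares over all genes.

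Of the ligands outside the member list, GDF15, a stress-induced cytokine, rose by 1.73 at 8 nM and 1.61 at 80 nM (SE 0.07, adjusted p = 1.6e-05 and 8.3e-07), and GDF11, close to myostatin, fell by 0.61 at 80 nM. Among extracellular regulators at 80 nM, THBS1, thrombospondin, which can activate latent TGF-beta, rose by 2.59 (SE 0.09, adjusted p = 1.9e-07; another probe 1.69), and LTBP1, which tethers latent TGF-beta to the matrix, by 1.08. FBN2, a fibrillin, fell by 4.29 (SE 0.07, adjusted p = 5.1e-09) and DCN, decorin, by 1.39. The BMP binders BMPER and CHRDL1 were not well above background at 80 nM and were at least 3.38-fold and 3.99-fold lower than in untreated cells. The other probe of CHRDL1, also not well above background at 80 nM, had -1.55 there in place of -4.06, and -0.38 at 8 nM in place of 0.28. NEO1, neogenin, a receptor for the BMP co-receptors of the RGM family, rose by 0.74. BAMBI, a decoy receptor, was not well above background at 8 nM and was at least 4.76-fold higher at 80 nM than there.

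The SMAD regulators that fell at 80 nM were led by SKI, a corepressor of SMAD complexes, and NEDD4L, a ubiquitin ligase for SMADs. SKI fell by 0.78 at 8 nM and fell by 1.52 at 80 nM (SE 0.18, adjusted p = 0.024 and 0.00016). NEDD4L fell by 1.42 at 80 nM, and its 2 other probes had -0.44 and -1.79. SKIL, a relative of SKI, fell by 1.28. Of the TGF-beta target genes, CDKN1A, the cell cycle inhibitor p21, rose by 1.82 at 8 nM and 1.91 at 80 nM, and TAGLN, transgelin, by 0.72 and 2.32. CCN2, connective tissue growth factor, rose by 1.70 at 8 nM (SE 0.17, adjusted p = 0.00063) but was not well above background at 80 nM, at least 2.23-fold below untreated cells and 7.27-fold below 8 nM. COL1A2, a chain of type I collagen, was at least 48.7-fold lower at 80 nM than in untreated cells, whereas COL1A1, the other chain, rose by 2.31; both were chosen after their values were seen. MYC fell by 1.11. Of the BMP target genes at 80 nM, HEY1 rose by 1.28 and MSX1 fell by 1.57, and at 8 nM GATA2 fell by 0.63. At 80 nM the targets of neither branch moved in a single direction.

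**Figure D4:**
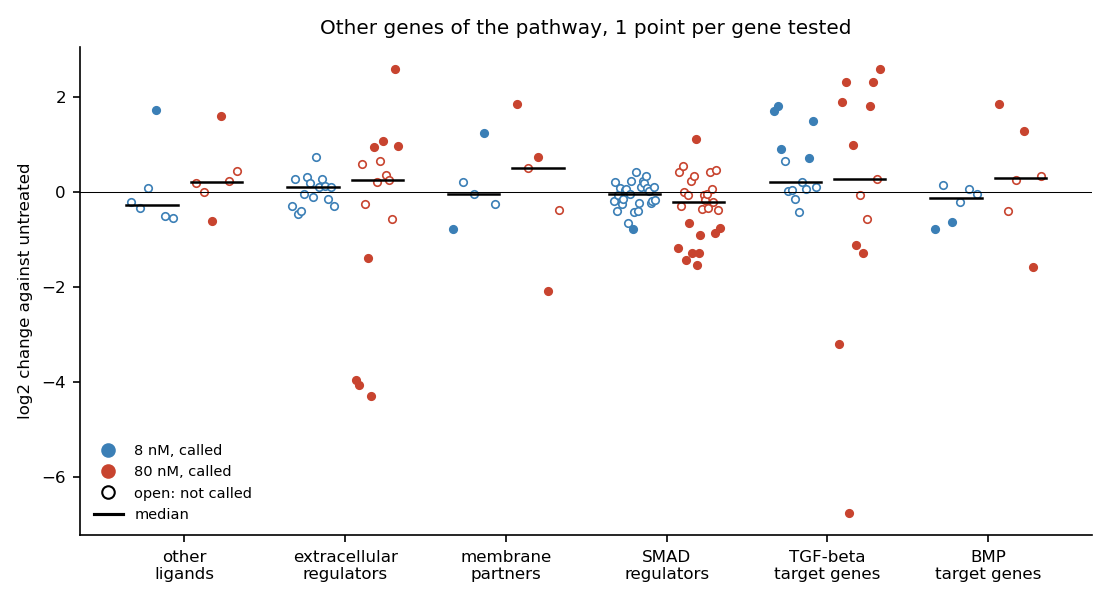
Log2 change against untreated cells (vertical axis) of each gene tested in 6 lists of the wider pathway, at 8 nM (blue) and 80 nM (red); filled points are called and black bars are medians. At 8 nM most points are open and near 0, and at 80 nM called genes lie on both sides in every list, with COL1A2, BMPER, CHRDL1, CCN2 and RGMA not well above background there.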

How the data were processed

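RNA of 9 cultures was hybridized to Agilent arrays of a single colour. The scanned arrays were read with Agilent Feature Extraction 10.7.3.1. The deposited processed intensity of each spot is background-subtracted and not scaled between arrays. A deposited table of log2 values, with almost the same quantiles on every array and of unstated normalization, served as an alternative. The lowess step that the paper names was not applied, since these arrays have a single channel. Groups and replicate numbers came from the labels; the paper calls the replicates independent biological ones, and p-values measure the spread between them.

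Control and outlier spots were left out, spots of a probe averaged, and log2 values set against the 75th percentile of each array. Probes were named by RefSeq accession (25715 of 27245 matched). For several probes of a gene the brightest was used, and all probes tested were given where they differed by over 0.5 or in sign. Groups were compared in R 4.3.3 with limma 3.58.1 over all 9 arrays, adjusting over 21832 genes; the script was tested on simulated data. The precision is limited by the 3 arrays per group.

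The members and lists were chosen with earlier results of these data known. Array values are given for members called against untreated cells, and for each list at most the 2 genes that rose and fell most and were measured in both groups. Genes below background outside that rule were named after their values were seen. Alternatives were normexp (offset 50) on the median signal, quantile, median and spike-in scaling (10 probes), the authors' values, other filters, probe rules, fits and thresholds, and each array left out. Deviations of untreated and 8 nM arrays of the same replicate number were weakly correlated (0.114, 0.101 and 0.163). For those of different number the correlations were between -0.124 and -0.003. Same-number pairs with 80 nM had values between -0.124 and 0.016. Pairs of 8 and 80 nM arrays of different number ran from -0.136 to 0.125. Values of this size therefore do not by themselves show a pairing, but a pairing of untreated and 8 nM arrays was not excluded. A fit with the replicate block on the untreated and 8 nM arrays alone was added after seeing the data.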

Additional observations from a re-analysis of the deposited data

Results flagged for a closer look

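For 5 members the changes against untreated cells had opposite signs at 8 and 80 nM, each with an adjusted p under 0.05 (limma). The share of all genes tested that met this rule is not given here, so the count cannot be read as particular to the pathway. The direct comparison of 80 nM with 8 nM, from the same fit, is the difference of these changes. Because the members were picked for opposite signs, its adjusted p under 0.05 (limma) was fixed by the choice and adds no support. The difference was 3.66 for NOG, 2.66 for SMAD9 and 1.00 for ID2 on the log2 scale, and -4.25 for FST and -1.22 for SMAD3. For NOG, ID2, FST and SMAD3 the change at one of the concentrations was under the fold limit. With spike-in scaling no change of these members at 8 nM had an adjusted p under 0.05 (limma, from 0.098 for SMAD3 to 0.80 for ID2). ID2 at 80 nM also missed that threshold there (0.35). With normexp background correction FST (0.11) and NOG (0.064) missed it at 8 nM, while ID2, SMAD3 and SMAD9 passed. With the replicate number as a block in a fit of the untreated and 8 nM arrays alone, the changes at 8 nM of FST, NOG, SMAD9 and ID2 missed that threshold (adjusted p = 0.051, 0.054, 0.081 and 0.093), and that of SMAD3 passed it (0.027). The 80 nM level of FST was not well above background, so its difference is a bound of at least 5.47-fold. The 80 nM arrays lay on a slide of their own, and concentration and slide cannot be told apart in these differences.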

How the results depend on the processing

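No member that was called turned its sign under the 23 other settings. With each array left out, 925 of 945 values of members kept their side of the threshold, 9 fell short of it and 11 passed it; under the other settings the numbers were 1326, 38 and 24 of 1388. Without 1 array the members up-regulated at 8 nM numbered between 1 and 2 and those down-regulated between 0 and 2; leaving out untreated replicate 1 gave 2 and 0, 8 nM replicate 1 gave 2 and 2, and 8 nM replicate 2 gave 1 and 2. Scaled to the spike-in controls, 0 members were up-regulated and 0 down-regulated at 8 nM, 3 were up-regulated at 80 nM, and 3 were higher at 80 nM than at 8 nM. Down-regulated members at 8 nM numbered 0 with no filter on dim probes, 0 with only the groups compared in the fit, and 2 with scaling to the median. With no fold limit, 4 members were up-regulated and 4 down-regulated at 8 nM, and 7 down-regulated at 80 nM. Normexp background correction left 3 members lower at 80 nM than at 8 nM. Dropping the fold limit adds calls by construction; for the others the cause was not tested. The replicate block over all 9 arrays changed no call of a member; in a fit without the 80 nM arrays, with the same block, 1 member was up-regulated and 0 down-regulated at 8 nM. The filter on all 9 arrays gave no value for FST, INHA, INHBC and TGFB2. Signals near background (FST, INHA, BMP5, TGFB2) depend most on how background is corrected.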
